A study of Mus musculus with 28 samples.

Results

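Tumour necrosis factor (TNF) is a cytokine that switches on the transcription factor NF-κB, and NF-κB in turn raises the genes that shut it off again. The genes described here are Tnf itself and 9 genes of NF-κB feedback and cytokine messenger decay. These are the IκB-type regulators Nfkbia, Nfkbiz and Bcl3, the ubiquitin-editing enzyme gene Tnfaip3 (A20) and the early response gene Ier3. The RNA-binding protein genes Zfp36, Zfp36l1, Zfp36l2 and Zc3h12a complete the set. The 10 genes were chosen by name for their function, with earlier results of these data known, from the gene name column of the deposited count tables. All 10 were found among the 55573 genes of the first table and the 57126 genes of the second. All 10 also passed the filter on low counts, which left 20365 and 19718 genes to be tested.

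As background, IκBα, the product of Nfkbia, holds NF-κB in the cytoplasm until an upstream kinase marks it for destruction, and its gene is then one of the first that NF-κB restores. A20 removes the ubiquitin chains on which TNF receptor signalling depends. Tristetraprolin, encoded by Zfp36, and its relatives from Zfp36l1 and Zfp36l2 bind AU-rich elements in the tails of cytokine messengers, Tnf among them, and bring in the machinery that removes the poly(A) tail. Regnase-1, encoded by Zc3h12a, cuts cytokine messengers at stem-loops. In skin, ultraviolet B light (UVB) damages keratinocytes, which respond with stress signalling and cytokines.

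The study deals with Vsir, the gene of the immune checkpoint receptor VISTA, which dampens immune responses, in UVB-exposed mouse skin. RNA of whole skin was counted in 28 libraries from 2 experiments, on 12-week-old female mice whose hair had been taken off 5 days earlier. In the whole-body experiment, wild-type mice (WT) and mice without Vsir in any cell (KO) were compared, with 3 libraries per group. In the keratinocyte experiment, mice whose Vsir gene is floxed but which lack Cre (FL) were compared with mice that carried the same floxed gene and K14Cre (cKO), with 4 libraries per group. K14Cre is active in keratinocytes, whereas the measured RNA came from all cells of the skin. In each genotype, 1 group received no UVB (NoUV) and another received 500 mJ/cm² (UV). The design text calls the controls littermates, and no label gives a strain. Harvest was 3 h after UV according to the titles and 1 day after UV according to the treatment protocol, and the labels did not settle which holds. The labels do not say which libraries share an animal or litter (the column names of the keratinocyte experiment open with a different number for each library, with no meaning given), so p-values measure the spread between the labelled libraries. Each experiment has its own batch label, so batch and experiment cannot be told apart.

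The libraries of WT and KO held 30.47 to 43.84 M counts (M for mega), and those of FL and cKO 7.12 to 31.14 M. Levels are given as CPM, the scaled count per M counts of the library, on a linear scale, and the scaling was done within each experiment. A gene is called where its Benjamini-Hochberg adjusted p over all genes tested was under 0.05. Vsir, the check of the genotype labels, was lower in KO than in WT by a log2 fold change of -2.64 without UV (adjusted p = 0.00047) and -2.89 with UV (adjusted p = 0.000332). Between cKO and FL it was not called, at 0.41 (adjusted p = 0.923) and -0.07 (adjusted p = 0.986). Markers of basal keratinocytes were present in every library, at 3741 CPM or more in sum, and markers of skeletal muscle summed to between 2473 and 19590 CPM, although the series title names epidermis. In 4 libraries of the keratinocyte experiment, namely FL NoUV 4, FL UV 1, FL UV 4 and cKO NoUV 1, hair follicle markers passed 1000 CPM. Hoxc10, a gene of body position chosen after its values were seen, had at most 2 counts in the NoUV libraries of the whole-body experiment and between 137 and 272 counts in its UV libraries. It had 2 to 115 counts in cKO NoUV and 0 to 2 in cKO UV, whereas FL overlapped widely, with 4 to 146 counts in FL NoUV and 0 to 128 in FL UV. In WT and KO, where treatment separated the counts fully, UV and the body position marked by Hoxc10 cannot be told apart. The part of body position in the results was not tested. In bulk tissue, fewer cells of a type and less RNA per cell cannot be told apart.

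The AU-rich elements that ZFP36 proteins are known to bind are shown first, because messengers of the set, those of the ZFP36 family among them, hold the core letters TTATTTATT after the stop codon. Described here are Tnf, Nfkbia, Zfp36, Zfp36l1 and Zfp36l2. Of 20644 genes with an annotated 3′ end, 7.79% held these letters. Tnf held them 5 times, 4 of them in the window printed here, and Nfkbia, Zfp36, Zfp36l1 and Zfp36l2 once each. Tnf also held the shorter ATTTA 8 times within 764 bases, and 0.301% of 2656 genes of like length held as many. The sites are written 5′ to 3′ on the messenger strand as DNA, with TTATTTATT in capitals, from the GRCm38 genome and the GENCODE M21 annotation. A match is a description of the letters and not a measured binding site.
Tnf, chr17:35199674-35199703, minus strand: ttaTTATTTATTTATTATTTATTTATTtgc
Nfkbia, chr12:55489608-55489637, minus strand: aggaccacgttTTATTTATTgtgcttttga
Zfp36, chr7:28376951-28376980, minus strand: ttatgacgactTTATTTATTgtattaagat
Zfp36l1, chr12:80108167-80108196, minus strand: aaactgttggaTTATTTATTttagaaattc
Zfp36l2, chr17:84184914-84184943, minus strand: aactatttaacTTATTTATTatcttgtgaa

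Zfp36 and Ier3 were called higher with UV in all 4 genotypes. On the fitted scale, means were between 4.06 and 6 times the untreated level for Zfp36 and between 3.71 and 5.45 times for Ier3. Tnf was called higher in FL and cKO only, and per kilobase it was the lowest of the 10 genes in WT and FL. The edgeR quasi-likelihood test called 2 of the 10 genes in WT, both higher, where 18.7% of all genes were called. In KO it called 4, of which 2 were higher and 2 lower, against 22.4% of all genes. In FL it called 4, all higher, against 7.62% of all genes, and in cKO it called 4, all higher, against 9.72%. The counts in WT and KO stand near these backgrounds, while those in FL and cKO lie above them. The median log2 fold change of the 10 genes was 0.31 in WT, 0.39 in KO, 0.61 in FL and 0.47 in cKO, while that of all genes lay between -0.01 and 0.02.

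Counted by whether the UV and NoUV libraries overlapped, 2 of the 10 genes in WT had all UV libraries higher, where 29.4% of all genes did not overlap (14.5% higher and 14.8% lower). In KO, 6 were higher and 2 lower without overlap, against 50.7% of all genes (25.3% higher and 25.4% lower). In FL, 6 were higher, against 14.5% of all genes (6.67% higher and 7.79% lower). In cKO, 5 were higher, against 17.6% (8.59% higher and 9.05% lower). Groups of 3 libraries separate more readily than groups of 4, and each count is set against the share of its own comparison.

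**Figure D1:**
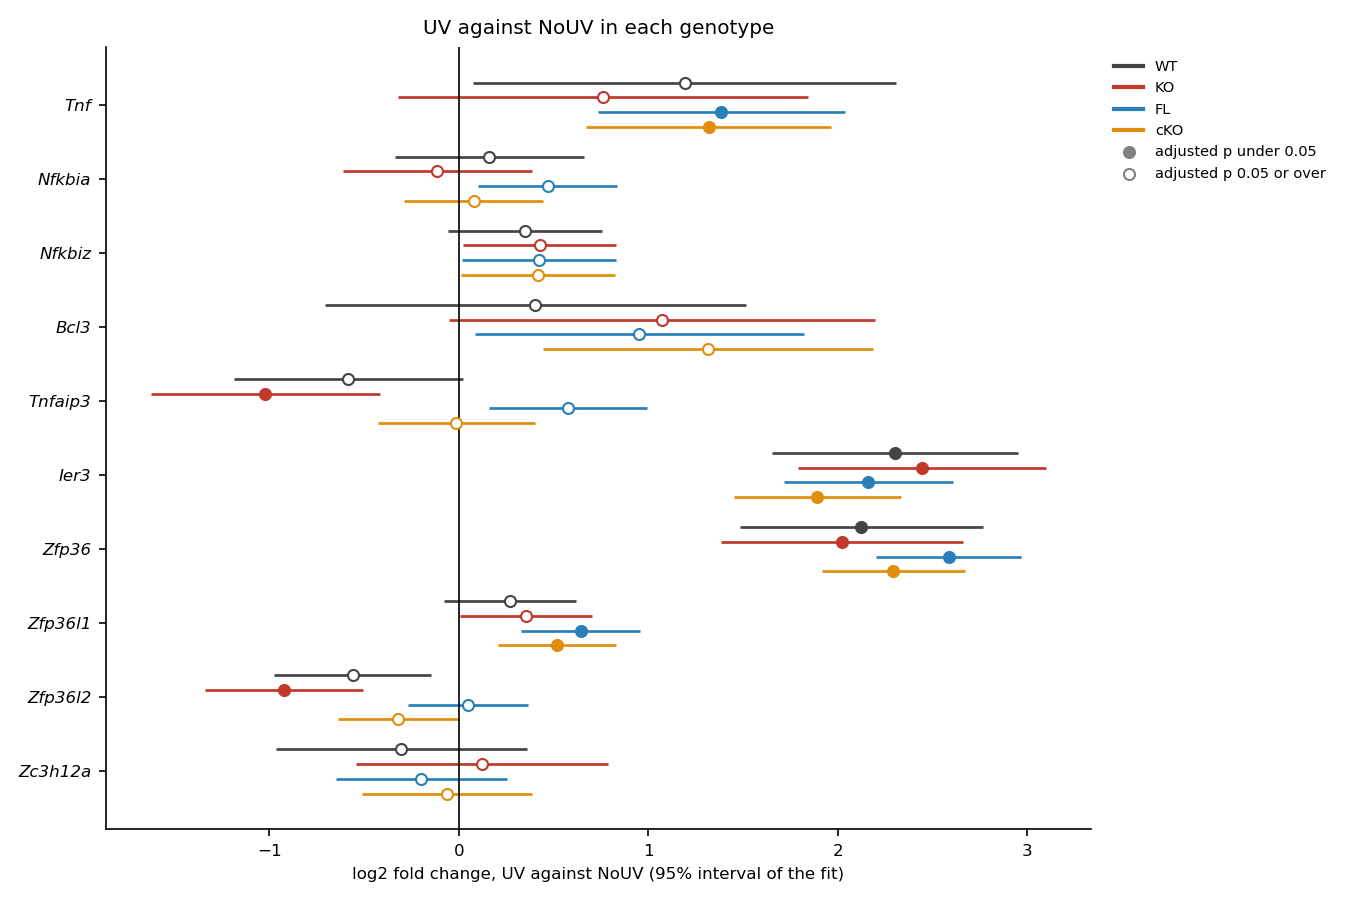
Log2 fold change of UV against NoUV (x axis) for each of the 10 genes (y axis) in WT, KO, FL and cKO, with the 95% interval of the edgeR fit as a line. Filled points are called at an adjusted p under 0.05. Zfp36 and Ier3 lie between 1.89 and 2.59 in every genotype, and Tnfaip3 lies between -1.02 in KO and 0.57 in FL.

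Zfp36 on chromosome 7 (GRCm38, 28376784 to 28380253, minus strand), which encodes tristetraprolin, had 105, 47.2 and 47.7 CPM in WT NoUV and 335, 323 and 217 CPM in WT UV. In KO it had 51.9, 51.6 and 67.7 CPM without UV and 273, 230 and 192 CPM with UV. WT NoUV 1 was the highest of the 6 untreated libraries, yet every UV library lay above it. In FL, Zfp36 had 66.3, 72.4, 80.1 and 67.5 CPM without UV and 429, 378, 558 and 354 CPM with UV. In cKO it had 90.8, 101, 112 and 98.4 CPM without UV and 375, 489, 668 and 439 CPM with UV. The UV and NoUV libraries did not overlap in any genotype.

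The log2 fold change of Zfp36 was 2.12 in WT (SE 0.30, adjusted p = 0.000695) and 2.02 in KO (SE 0.30, adjusted p = 0.000639). In FL it was 2.59 (SE 0.18, adjusted p = 2.55e-06) and in cKO 2.29 (SE 0.18, adjusted p = 1.28e-05). In cKO this is a 4.90-fold difference. Zfp36 was called in all 19 alternative analyses of each whole-body genotype and in all 25 of each keratinocyte genotype.

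Ier3 on chromosome 17 (GRCm38, 35821684 to 35822923, plus strand) encodes a small early response protein that NF-κB and stress kinases induce. It had 34.2, 17.9 and 22.6 CPM in WT NoUV and 79.0, 171 and 118 CPM in WT UV. In KO it went from 16.8, 17.2 and 26.3 CPM to 128, 98.2 and 102 CPM. WT UV 1 was the lowest UV library of that experiment and still stood above all untreated libraries. FL had 15.6, 18.4, 22.0 and 16.8 CPM without UV and 72.0, 64.4, 120 and 70.6 CPM with UV. In cKO the values were 25.2, 28.8, 26.3 and 19.0 CPM without UV and 74.8, 108, 109 and 77.5 CPM with UV. No UV library overlapped with an untreated library of its genotype.

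Its log2 fold change was 2.30 in WT (SE 0.30, adjusted p = 0.00051), 2.45 in KO (SE 0.30, adjusted p = 0.00026), 2.16 in FL (SE 0.21, adjusted p = 5.7e-05) and 1.89 in cKO (SE 0.21, adjusted p = 0.000168). Every one of the 19 or 25 alternative analyses called it as well. Zfp36 and Ier3 also followed each other across the libraries, as described further on with the genes of most similar pattern.

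**Figure D2:**
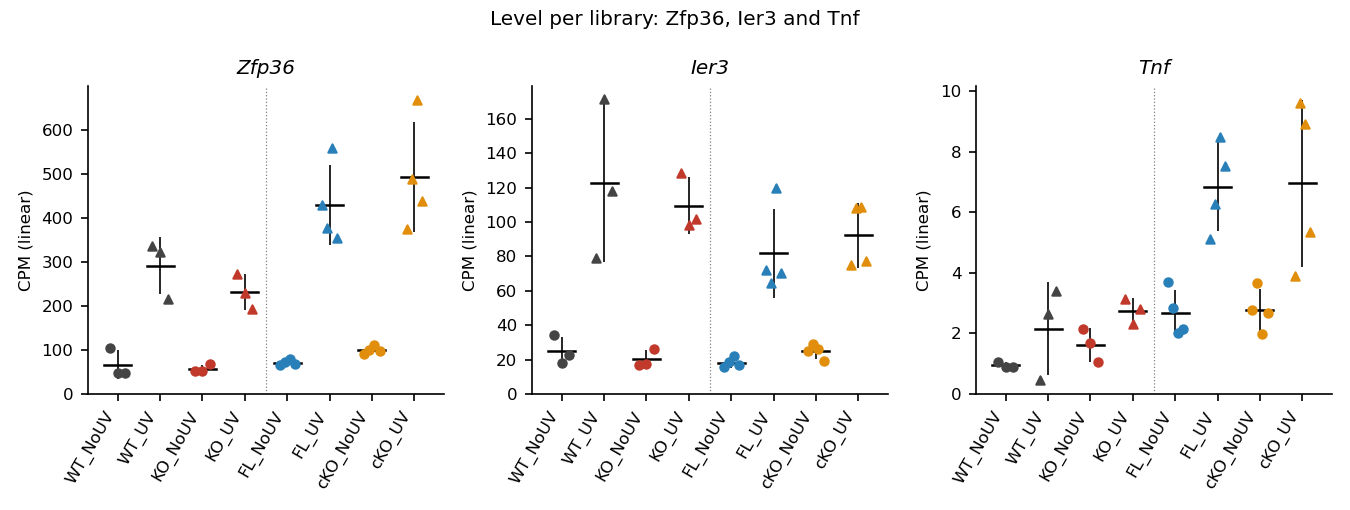
Level of Zfp36, Ier3 and Tnf in each library (y axis, CPM, linear) by group (x axis), with circles for NoUV and triangles for UV. The horizontal bar is the group mean, the vertical line is ± 1 SD, and the dotted line parts the experiments. Zfp36 lies at 192 CPM or above in every UV library, and Tnf stays under 10 CPM throughout.

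Because Zfp36 and Ier3 rose together, their promoters are printed beside those of Nfkbia and Tnfaip3, which were not called higher in any genotype. The windows cover 250 bases before and 50 after the RefSeq transcription start, 5′ to 3′ on the gene's strand (GRCm38.p6). Capitals mark a κB motif, the AP-1 motif TGANTCA or the CArG box bound by serum response factor. Both strands were searched, as well as for the CRE motif TGACGTCA. Windows were matched for 8 of the 10 genes, all but Nfkbiz and Zfp36l2, and a second window of Tnfaip3 held none of the motifs.
Zfp36, chr7:28379179-28379478, minus strand: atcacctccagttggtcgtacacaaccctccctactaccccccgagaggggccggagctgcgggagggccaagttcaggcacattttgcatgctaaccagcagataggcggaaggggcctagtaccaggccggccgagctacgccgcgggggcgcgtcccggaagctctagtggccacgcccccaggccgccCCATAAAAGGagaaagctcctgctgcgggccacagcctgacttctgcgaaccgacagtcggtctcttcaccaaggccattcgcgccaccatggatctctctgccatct
Ier3, chr17:35821463-35821762, plus strand: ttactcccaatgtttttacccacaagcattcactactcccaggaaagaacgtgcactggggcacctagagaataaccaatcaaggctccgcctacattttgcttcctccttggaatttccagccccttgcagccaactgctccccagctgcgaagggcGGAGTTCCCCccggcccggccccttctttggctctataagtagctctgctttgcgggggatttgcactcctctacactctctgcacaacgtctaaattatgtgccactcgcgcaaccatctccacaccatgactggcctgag
Nfkbia, chr12:55492598-55492897, minus strand: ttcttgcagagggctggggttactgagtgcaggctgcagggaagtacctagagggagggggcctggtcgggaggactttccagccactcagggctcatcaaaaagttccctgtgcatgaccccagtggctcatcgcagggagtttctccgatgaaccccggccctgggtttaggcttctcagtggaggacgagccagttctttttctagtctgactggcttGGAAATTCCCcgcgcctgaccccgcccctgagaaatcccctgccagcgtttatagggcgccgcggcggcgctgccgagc
Tnfaip3, chr10:19015361-19015660, minus strand: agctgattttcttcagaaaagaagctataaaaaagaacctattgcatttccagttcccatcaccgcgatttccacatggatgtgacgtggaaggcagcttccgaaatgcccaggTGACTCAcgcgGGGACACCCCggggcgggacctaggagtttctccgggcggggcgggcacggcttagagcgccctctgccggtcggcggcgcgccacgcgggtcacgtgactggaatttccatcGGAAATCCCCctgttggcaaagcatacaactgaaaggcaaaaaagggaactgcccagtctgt

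The Zfp36 window held a CArG box whose first base lay at position -58 from the start, and no κB motif in these letters. The Ier3 window held a κB motif at -92, that of Nfkbia at -29, and that of Tnfaip3 at -125 and -12, with an AP-1 motif at -136. Bcl3 had a κB motif at position 3, Zfp36l1 had an AP-1 motif at -129, and the windows of Tnf and Zc3h12a held none of the 4 motifs. No printed motif overlapped another. Of 32851 RefSeq promoters of this length, 8.46% held the κB motif, 7.81% the AP-1 motif, 1.79% the CRE motif and 1.63% the CArG box. These matches describe letters in the windows and say nothing of what binds there.

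Tnf, on chromosome 17 (GRCm38, 35199381 to 35202007, minus strand), is the cytokine that this feedback restrains. It had 1.06, 0.884 and 0.896 CPM in WT NoUV and 0.452, 2.65 and 3.39 CPM in WT UV. WT UV 1, with 14 counts, was the lowest of the 12 libraries of that experiment, so that the WT groups overlapped. In KO, Tnf had 2.14, 1.67 and 1.04 CPM without UV and 3.14, 2.30 and 2.81 CPM with UV, which did not overlap. In FL it rose from 3.68, 2.84, 2.01 and 2.16 CPM to 5.12, 6.28, 8.47 and 7.51 CPM. In cKO the values were 2.78, 3.65, 1.97 and 2.68 CPM without UV and 3.91, 9.62, 8.91 and 5.36 CPM with UV. Neither FL nor cKO libraries overlapped between the treatments.

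Tnf was called higher in FL, with a log2 fold change of 1.39 (SE 0.31, adjusted p = 0.0115), and in cKO, with 1.32 (SE 0.30, adjusted p = 0.0129). It was not called in WT, at 1.19 (SE 0.52, adjusted p = 0.129), or in KO, at 0.76 (SE 0.50, adjusted p = 0.31). Without WT UV 1 the value in WT was 1.65 and was called (adjusted p = 0.00526). Without the 4 hair-rich libraries the value in FL was 1.42 and was no longer called (adjusted p = 0.0959). That the rise differed between the experiments was not shown, since the difference of the UV effects was -0.37 (95% interval -1.24 to 0.49, adjusted p = 0.67) in a comparison added after the data were seen.

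Macrophages, a main source of TNF, were followed by 8 marker genes, none of which was at 0 in any library. Their summed level was 294 to 1102 CPM in FL NoUV and 871 to 1365 CPM in FL UV, and 374 to 817 CPM in cKO NoUV and 338 to 1112 CPM in cKO UV. In WT it went from 613 to 1057 CPM without UV to 780 to 1306 CPM with UV, and in KO from 781 to 1189 CPM to 1048 to 2002 CPM. The edgeR test called 1 of the 8 markers higher in WT, 2 in KO and 0 in FL or cKO. The list of 6 mast cell markers had a median log2 fold change of 1.07 in FL and 1.53 in cKO. It was -0.44 in WT and -0.19 in KO. Of these markers, 4 were called higher in cKO and 0 in FL, while 1 was called lower in WT and 1 in KO. The part of macrophage or mast cell content in the Tnf result was not tested.

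The IκB-type regulators moved less than Zfp36 and Ier3. Nfkbia, which encodes IκBα, ran from 54.4 to 105 CPM over the untreated libraries of the whole-body experiment and from 58.7 to 105 CPM over its UV libraries. The corresponding ranges were 47.7 to 93.3 CPM and 57.9 to 95.1 CPM in the keratinocyte experiment. Its largest difference was in FL, where 47.7 to 70.3 CPM without UV compared with 74.1 to 86.7 CPM with UV. These FL groups did not overlap, yet the log2 fold change of 0.47 (SE 0.17, adjusted p = 0.113) was not called. In the other genotypes it was between -0.11 and 0.16.

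Nfkbiz encodes IκBζ, a nuclear IκB protein that helps NF-κB induce a subset of its targets. Its values were similar in each genotype, with log2 fold changes of 0.35 in WT, 0.43 in KO, 0.42 in FL and 0.42 in cKO, and none was called (adjusted p from 0.123 to 0.221). In FL NoUV the shallowest library, replicate 1 with 620 counts of Nfkbiz, had 87.8 CPM, and the others had 41.2 to 54.0 CPM. Without that library the FL value was 0.69 and was called (adjusted p = 0.0113). UV libraries of FL had 65.2 to 93.4 CPM.

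Bcl3, whose product is another nuclear IκB protein, varied widely within groups. In WT it had 15.4, 3.57 and 4.54 CPM without UV and 4.49, 16.1 and 10.7 CPM with UV, so that replicate 1 stood apart from the others in both groups and in opposite directions. KO had 4.12, 7.02 and 6.98 CPM without UV and 14.2, 14.5 and 9.43 CPM with UV. In cKO, 23.5, 12.4, 8.43 and 8.83 CPM without UV compared with 28.1, 30.1, 34.7 and 39.3 CPM with UV. The KO and cKO groups did not overlap, and those of WT and FL did.

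The log2 fold change of Bcl3 was 0.40 in WT (adjusted p = 0.64), 1.07 in KO (adjusted p = 0.164), 0.95 in FL (adjusted p = 0.176) and 1.31 in cKO (SE 0.41, adjusted p = 0.055). None of these was called. Same-numbered cKO libraries deviated together (r from 0.23 to 0.49), although no label pairs them. With the number as a block over all 16 libraries of the experiment, FL included, the cKO value was 1.39 and was called (adjusted p = 0.0484). It was also called in cKO when cKO NoUV 1 (1.73, adjusted p = 0.0154), FL NoUV 1 (adjusted p = 0.0476), FL NoUV 4 (adjusted p = 0.0468), FL UV 2 (adjusted p = 0.0391) or FL UV 3 (adjusted p = 0.0347) was left out. The other alternatives that called it in cKO were DESeq2 (1.32, adjusted p = 0.0127), muscle and hair follicle covariates (1.93, adjusted p = 0.0264), a fit of the 2 groups alone (1.32, adjusted p = 0.0376), the leading digit of the column names' number as a block (1.41, adjusted p = 0.0434) and leaving out the hair-rich libraries (1.74, adjusted p = 0.015). In WT it was called without WT NoUV 1 (1.36, adjusted p = 0.0467). It was also called there without both WT NoUV 1 and WT UV 1 (1.72, adjusted p = 0.00368), a choice made after seeing the data. In KO it was called without these 2 libraries (1.07, adjusted p = 0.00897) and in a fit of the 2 groups alone (1.07, adjusted p = 0.00869).

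**Figure D3:**
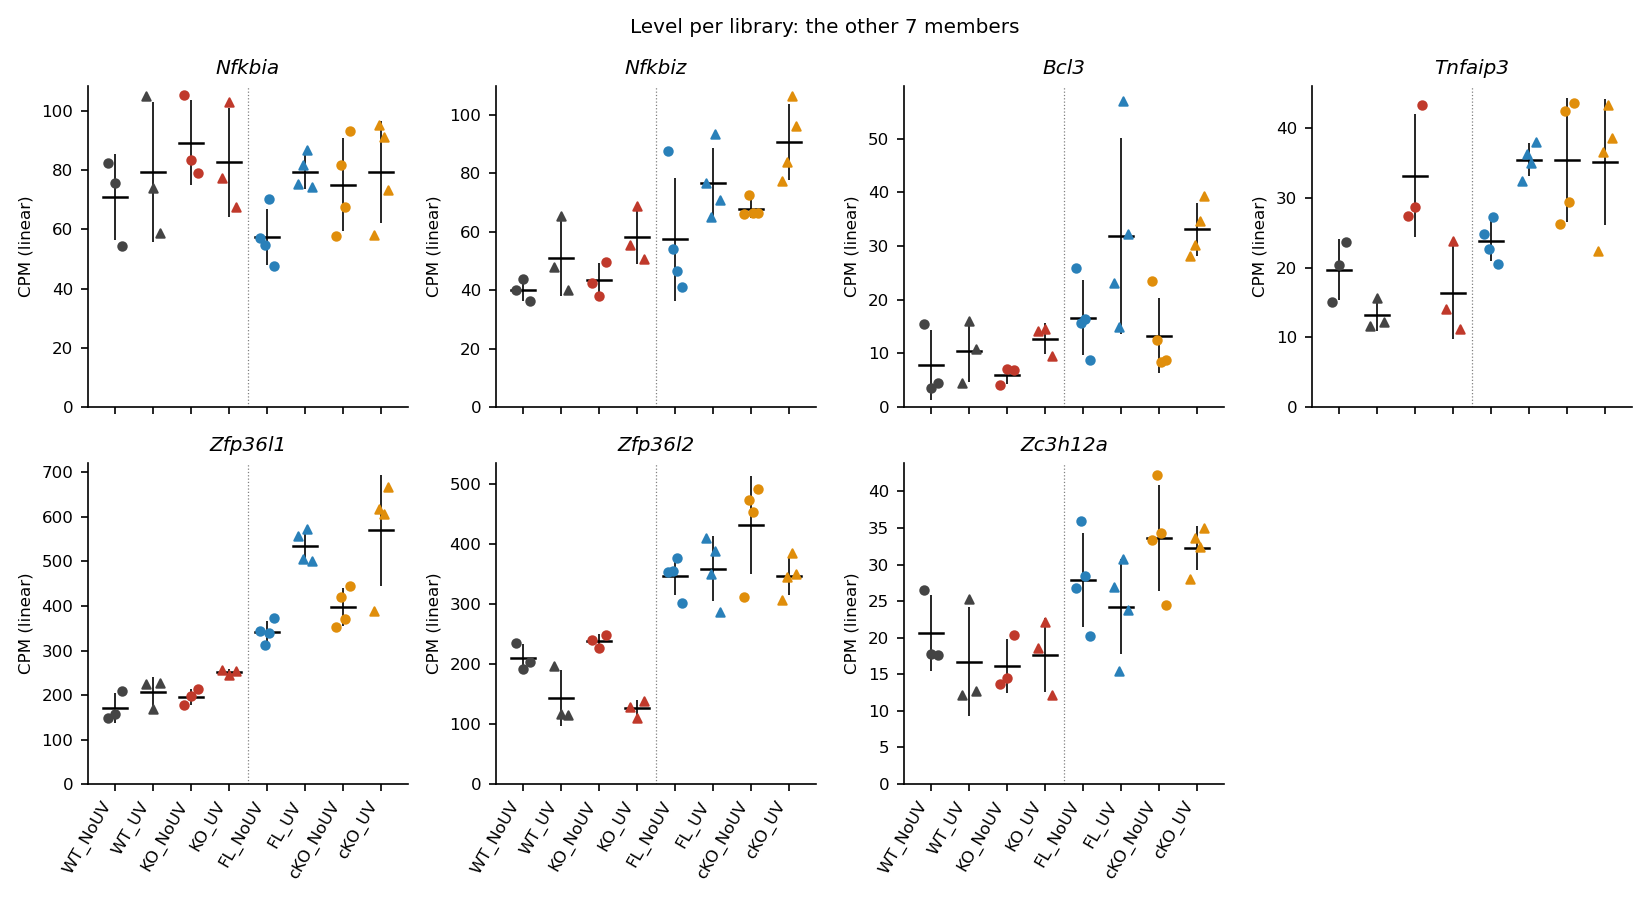
Level of the other 7 genes in each library (y axis, CPM, linear) by group (x axis), with circles for NoUV and triangles for UV. The horizontal bar is the group mean, the vertical line is ± 1 SD, and the dotted line parts the experiments. Tnfaip3 falls from 27.5 to 43.3 CPM in KO NoUV to 11.2 to 23.9 CPM in KO UV and lies at 32.4 to 38.0 CPM in FL UV against 20.5 to 27.2 CPM in FL NoUV.

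Tnfaip3 on chromosome 10 (GRCm38, 19000910 to 19015657, minus strand), which encodes A20, went in opposite directions in KO and FL. It had 15.1, 20.4 and 23.7 CPM in WT NoUV and 11.6, 15.6 and 12.2 CPM in WT UV. In KO it fell from 27.5, 28.7 and 43.3 CPM to 14.1, 23.9 and 11.2 CPM. In FL it had 24.8, 22.7, 27.2 and 20.5 CPM without UV and 32.4, 36.2, 35.0 and 38.0 CPM with UV. The KO groups did not overlap, with UV lower, and the FL groups did not overlap, with UV higher. In cKO it had 26.3, 42.5, 29.3 and 43.6 CPM without UV and 22.3, 36.5, 43.3 and 38.5 CPM with UV, which overlapped widely.

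The log2 fold change of Tnfaip3 was -0.58 in WT (SE 0.28, adjusted p = 0.172) and -1.02 in KO (SE 0.28, adjusted p = 0.0198). It was 0.57 in FL (SE 0.20, adjusted p = 0.087) and -0.01 in cKO (SE 0.20, adjusted p = 0.978). Only the fall in KO was called. It was lost without KO NoUV 3 (-0.79, adjusted p = 0.0987), KO UV 1 (-0.95, adjusted p = 0.0693) or KO UV 3 (-0.81, adjusted p = 0.0849), and with muscle and hair follicle levels as covariates (-0.91, adjusted p = 0.159). The value in FL was called without cKO UV 1 (0.58, adjusted p = 0.0396), by DESeq2 (0.59, adjusted p = 0.0477), in a fit of the 2 groups alone (0.59, adjusted p = 0.0384) and with the leading digit of the column names' number as a block (0.57, adjusted p = 0.0498). T cells also express Tnfaip3, and the summed level of 7 T cell markers, none at 0 in any library, was 46.7 to 53.0 CPM in KO NoUV and 24.2 to 34.3 CPM in KO UV, where 3 of the 7 were called lower. In FL it was 28.4 to 57.6 CPM and 26.1 to 34.1 CPM, with 0 of 7 called. Its part in the result was not tested.

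Among the ZFP36 relatives, Zfp36l1 rose modestly and Zfp36l2 did not rise. Zfp36l1 was called higher in FL, where 313 to 374 CPM without UV compared with 502 to 572 CPM with UV, a log2 fold change of 0.64 (SE 0.15, adjusted p = 0.0137). It was also called higher in cKO, from 353 to 446 CPM without UV to 388 to 667 CPM with UV, at 0.52 (SE 0.15, adjusted p = 0.0355). In cKO the lowest UV library, replicate 1 at 388 CPM, overlapped with the untreated ones. The whole-body values were 0.27 in WT (adjusted p = 0.274) and 0.36 in KO (adjusted p = 0.135).

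In FL the call of Zfp36l1 was lost without FL NoUV 2 (0.60, adjusted p = 0.0531) and without the hair-rich libraries (0.70, adjusted p = 0.0897). In cKO it was lost in 12 of 25 alternative analyses. These included leaving out cKO NoUV 1, 2 or 3 (adjusted p = 0.0845, 0.0756 and 0.1), cKO UV 2, 3 or 4 (adjusted p = 0.103, 0.0913 and 0.101) or FL UV 1 (adjusted p = 0.0505). The log2 fold change in cKO stayed between 0.44 and 0.53 in these.

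Zfp36l2 on chromosome 17 (GRCm38, 84183931 to 84187947, minus strand) had 235, 193 and 204 CPM in WT NoUV and 197, 116 and 116 CPM in WT UV. In KO it fell from 241, 227 and 248.8 CPM to 129, 111 and 138 CPM, with no overlap. FL had 353, 356, 378 and 303 CPM without UV and 410, 351, 389 and 287 CPM with UV. In cKO the values were 312, 473, 453 and 492 CPM without UV and 307, 345, 385 and 351 CPM with UV. WT UV 1 was the high library of its group, and cKO NoUV 1 was the low library of its group.

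Its log2 fold change was -0.92 in KO (SE 0.19, adjusted p = 0.00461), which was called, and -0.56 in WT (SE 0.19, adjusted p = 0.0578), 0.05 in FL (adjusted p = 0.882) and -0.32 in cKO (adjusted p = 0.196), which were not. In WT it was called without WT UV 1 (-0.87, adjusted p = 0.0028), by DESeq2 (adjusted p = 0.0413) and without the filter on low counts (adjusted p = 0.0265). In cKO it was called without cKO NoUV 1 (-0.45, adjusted p = 0.0465). Hair follicle markers, 8 of which were tested, summed to 78.5 to 84.0 CPM in KO NoUV and 12.5 to 17.3 CPM in KO UV, with 4 called lower. In WT they summed to 78.4 to 129 CPM without UV and 17.0 to 69.0 CPM with UV, with 3 called lower. In the keratinocyte experiment, 2 of 9 were called lower in cKO and 0 in FL. The 6 fibroblast markers summed to 7686 to 9172 CPM in KO NoUV and 11315 to 14724 CPM in KO UV. Of these, 3 were called higher in KO and 0 in WT, FL or cKO. The part of hair follicle or fibroblast content in the fall of Zfp36l2 was not tested. Zc3h12a, which encodes regnase-1, was not called in any genotype. It ran from 12.1 to 26.6 CPM over the whole-body experiment and from 15.4 to 42.2 CPM over the keratinocyte experiment, with log2 fold changes between -0.30 and 0.12.

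Levels of different genes were compared only per kilobase of exon, as CPM per kilobase. The exon length counted for Zfp36, 3470 bases, covers its whole annotated span. Any stretch of it that is absent from the messenger lowers the Zfp36 value per kilobase, so its rank is uncertain. On this scale, Zfp36l2 at 59.7 ± 6.25 (SD, n = 3) and Zfp36l1 at 57.1 ± 11.02 led the set in WT NoUV and did not differ beyond their spread. Nfkbia followed at 43.98 ± 9.06, Ier3 at 22.0 ± 7.44 and Zfp36 at 19.2 ± 9.66. Tnf was last at 0.577 ± 0.0592. In WT UV, Ier3 at 109 ± 41.0 and Zfp36 at 84.0 ± 18.8 came first, ahead of Zfp36l1 at 69.0 ± 11.2, and these neighbours overlapped within 1 SD.

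In FL NoUV the order was led by Zfp36l1 at 114 ± 8.38 (SD, n = 4) CPM per kilobase and Zfp36l2 at 98.3 ± 8.999, while Zfp36 stood at 20.6 ± 1.82. In FL UV it was Zfp36l1 at 179 ± 12.1, Zfp36 at 124 ± 26.2 and Zfp36l2 at 102 ± 15.3, of which the last pair overlapped within 1 SD. With the counted exon length, tristetraprolin's messenger went from well below those of its relatives to their range. With a shorter length it would stand higher. Tnf had the lowest mean of the 10 in FL UV as well, at 4.18 ± 0.891 CPM per kilobase, which overlapped within 1 SD with Tnfaip3 at 4.90 ± 0.327.

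Whether loss of Vsir changes these genes was asked with 4 comparisons of genotype, and whether it changes their response to UV with an interaction in each experiment. The edgeR test called 0 of the 10 genes in any of these 6 comparisons, and DESeq2 also called 0. Of all genes, edgeR called 0.00982% between KO and WT without UV, 0.0442% with UV, and 0% in the other 4. DESeq2 called more of all genes between KO and WT, as given in the last section. At an unadjusted p under 0.05, the edgeR test counted 1 of the 10 genes in KO against WT without UV, 4 in cKO against FL without UV, and 0 in the rest. Over all genes the same limit was passed by 3219 of 20365 in the first and 928 of 19718 in the second. The adjusted p was 0.238 for the first and 0.923 for each of the 4. Between KO and WT with UV, 0.0393% of all genes tested were called higher and 0.00491% lower.

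**Figure D4:**
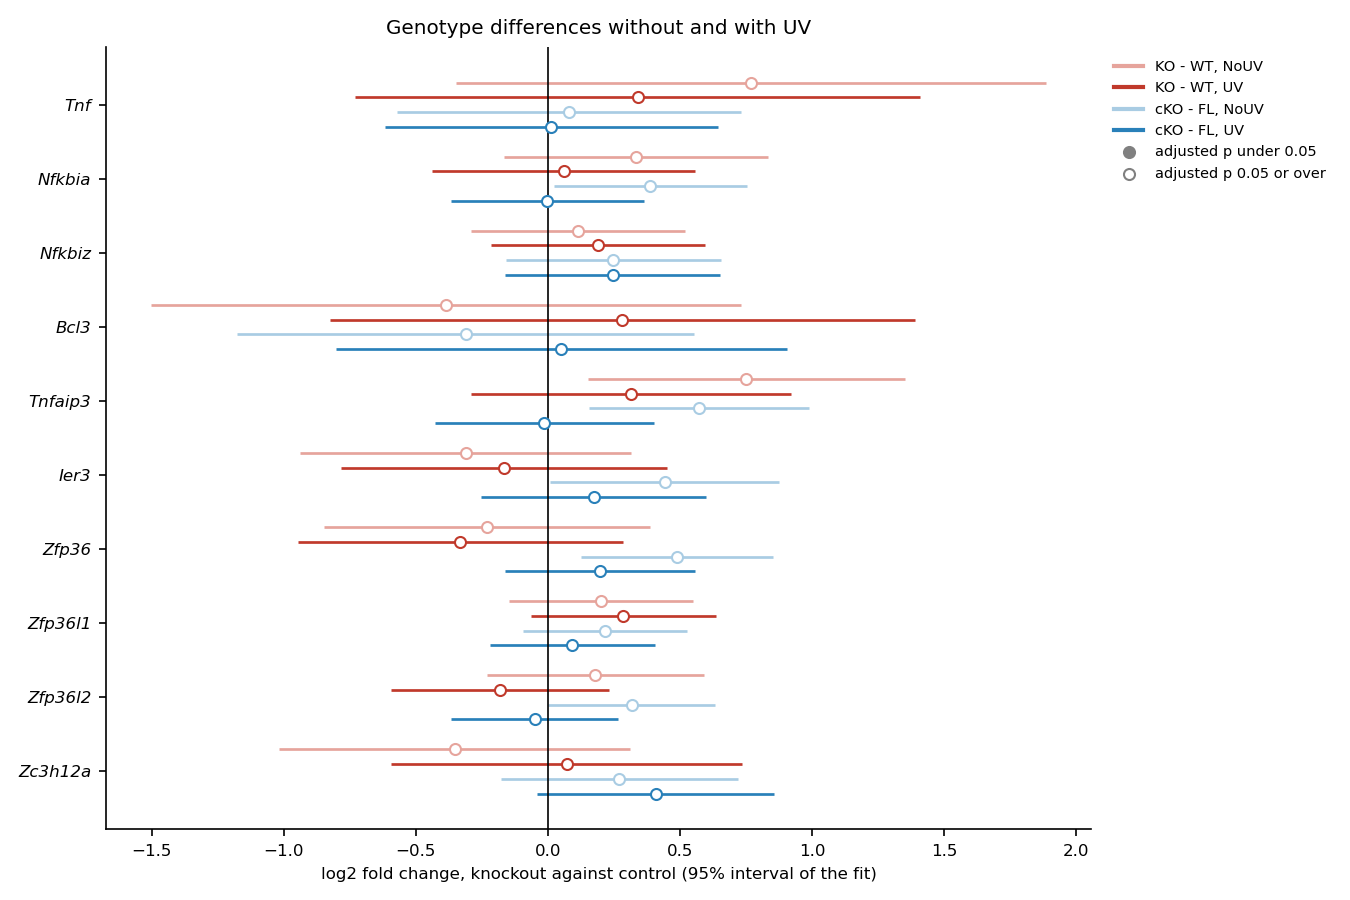
Log2 fold change of KO against WT and of cKO against FL (x axis), without and with UV, for each of the 10 genes (y axis), with the 95% interval of the edgeR fit as a line. Open points are not called, and no point is filled. The intervals of Tnfaip3 without UV lie above 0 in both experiments, at 0.75 for KO and 0.57 for cKO, with adjusted p = 0.238 and 0.923.

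Tnfaip3 was the gene counted in KO against WT without UV, at 0.75 (95% interval 0.15 to 1.35), with 27.5 to 43.3 CPM in KO and 15.1 to 23.7 CPM in WT. It was the 1 gene of the 10 without overlap in this comparison, against 24.4% of all genes (12.8% higher). With UV it was Zfp36l1, at 0.29 (adjusted p = 0.398), against 22.2% of all genes (12% higher and 10.2% lower). Tnfaip3 was also among those of cKO against FL without UV, at 0.57 (95% interval 0.16 to 0.99), together with Zfp36 at 0.49, Ier3 at 0.44 and Nfkbia at 0.39. Untreated Zfp36 did not overlap there, at 90.8 to 112 CPM in cKO and 66.3 to 80.1 CPM in FL. It was 1 of the 10 genes without overlap there, against 2.2% of all genes (1.4% higher). Between cKO and FL with UV, 0 of the 10 were without overlap, against 2.73% of all genes. With UV, the differences of these 4 genes between cKO and FL were 0.20 or less.

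For Tnf, the interval of KO against WT ran from -0.35 to 1.89 without UV and from -0.73 to 1.41 with UV. That of cKO against FL ran from -0.57 to 0.73 and from -0.62 to 0.64. The change of the UV response was -0.43 (95% interval -1.97 to 1.11) for KO and -0.07 (95% interval -0.97 to 0.84) for cKO. A difference of 1 on the log2 scale therefore remained within the whole-body intervals of Tnf. For Zfp36 the change of the UV response was -0.10 (95% interval -0.97 to 0.77) for KO and -0.29 (95% interval -0.80 to 0.22) for cKO.

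Between the control genotypes, the UV response in WT minus that in FL was called for 0 of the 10 genes by edgeR, where 1.2% of all genes were called. DESeq2 also called 0 of the 10, and it called more of all genes than edgeR, as given in the last section. At an unadjusted p under 0.05, the edgeR test counted 2 of the 10, against 2925 of all 21851 genes. Tnfaip3 was at -1.14 (95% interval -1.85 to -0.44, adjusted p = 0.098) and Zfp36l2 at -0.59 (adjusted p = 0.247). Zfp36l2 was called without WT UV 1 (-0.89, adjusted p = 0.0492). In a comparison added after the data were seen, the mean UV response of WT and KO was set against that of FL and cKO. It called 2 of the 10 genes, both lower in the whole-body experiment, where 9.09% of all genes were called. These were Tnfaip3, at -1.09 (SE 0.24, adjusted p = 0.00536), and Zfp36l2, at -0.61 (SE 0.17, adjusted p = 0.0223). Both were called in 31 of 31 alternative analyses of the fit of all 8 groups. These were other size factors, no filter, DESeq2 and single libraries left out. Tissue covariates, blocks and removal of the hair-rich or shallow libraries were not run for it. Batch, genetics, depth and the relation of Hoxc10 to UV differ between the experiments along with this difference, and they cannot be told apart.

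Genes around the set were described by 7 lists, chosen with earlier results of these data known. Several cytokine messengers that ZFP36 or regnase-1 are known to hold down were called higher with UV. Of the 14 genes listed, the filter on low counts left 12 in the whole-body experiment and 10 in the keratinocyte experiment. The filter asks for enough counts in as many libraries as a group holds, so UV libraries alone can pass a gene. In WT, 5 of 12 tested were called higher, in KO 6 of 12, in FL 6 of 10 and in cKO 5 of 10, and 0 were called lower. The higher calls covered 8.91%, 11.3%, 3.52% and 4.57% of all genes in the same order. The list's median log2 fold change was 1.81 in WT, 2.34 in KO, 2.20 in FL and 1.46 in cKO. The 6 in KO include Csf3, and the KO median was 1.90 with Csf3, which had 0 counts in every KO NoUV library, set at its lower bound of 3 counts per library.

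The chemokine gene Ccl2 went from 4.04 to 7.29 CPM in WT NoUV to 19.5 to 43.8 CPM in WT UV, a log2 fold change of 2.38 (SE 0.32, adjusted p = 0.000548). In KO it was 2.57, in FL 3.07 and in cKO 2.97, each called. Cxcl1, which draws neutrophils, was called at 3.404 in WT, 2.69 in KO, 3.85 in FL and 3.05 in cKO. Il6 was called at 3.03 in KO (adjusted p = 0.00552), 3.11 in FL (adjusted p = 0.00236) and 3.52 in cKO (adjusted p = 0.00107), and reached at most 9.74 CPM.

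Partners of messenger decay went the other way. In WT, 9 of 20 were called lower, in KO 10, in FL 4 and in cKO 3, and 0 were called higher. The lower calls covered 9.84%, 11.1%, 4.09% and 5.15% of all genes. Cnot2, a subunit of the CCR4-NOT deadenylase that ZFP36 recruits, went from 89.4 to 97.9 CPM in WT NoUV to 47.5 to 61.5 CPM in WT UV. Its log2 fold change was -0.83 in WT, -0.89 in KO, -0.62 in FL and -0.61 in cKO, each called. Dcp1a, a decapping factor, was called at -1.24 in WT and -1.06 in KO, and Xrn1, which degrades decapped messengers, at -0.39 in FL and -0.35 in cKO.

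**Figure D5:**
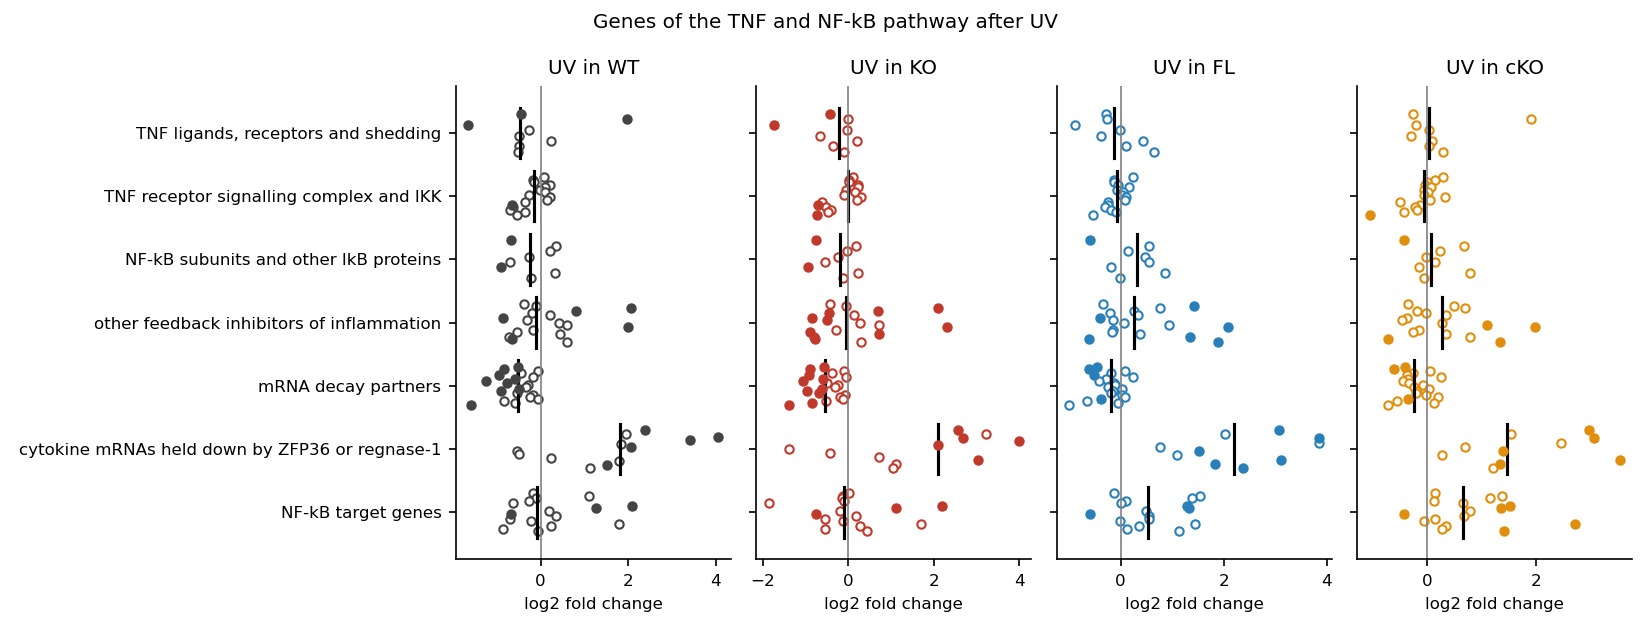
Log2 fold change of UV against NoUV (x axis) for the genes of 7 lists (y axis) in WT, KO, FL and cKO, with each gene as a point that is filled where called. The black bar is the median of the points of a list. Csf3 is left out in KO, where it had 0 counts in every NoUV library, and the mRNA decay partners have called points only below 0.

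Of 17 other feedback inhibitors of inflammation, 3 were called higher and 2 lower in WT, 4 and 5 in KO, 4 and 2 in FL, and 3 and 1 in cKO. Over all genes, higher and lower calls made up 8.91% and 9.84% in WT, 11.3% and 11.1% in KO, 3.52% and 4.09% in FL, and 4.57% and 5.15% in cKO, and the counts of the lists that follow stand against the same shares. Socs3, which blocks cytokine receptor kinases, was called higher in all 4, at 1.99, 2.31, 2.09 and 1.98. Traf3, an adaptor that restrains the alternative NF-κB pathway, was called lower in all 4, at -0.65, -0.77, -0.62 and -0.71. Tsc22d3, a glucocorticoid-induced inhibitor, was called higher in FL at 1.88 and in cKO at 1.34.

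Of 8 NF-κB subunits and other IκB proteins, 2 were called lower in WT, 2 in KO, 1 in FL and 1 in cKO, and 0 were called higher. Nfkb1, the gene of the p105 and p50 subunit, was called lower in all 4 genotypes, at -0.67, -0.76, -0.59 and -0.42. Rel was called lower in WT at -0.91 and in KO at -0.94. Of 16 NF-κB target genes, 2 were called higher and 1 lower in WT, KO and FL each, and 4 higher and 1 lower in cKO. In WT and KO the higher calls are near the shares of 8.91% and 11.3% over all genes. The gene called lower was Nfkb1, which stands in both lists. Icam1, an adhesion molecule of endothelium and keratinocytes, was called at 1.26, 1.12, 1.33 and 1.35, and Gadd45b, a stress gene, at 2.09, 2.20, 1.29 and 1.53.

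Upstream of NF-κB, of 16 genes of the TNF receptor signalling complex and IκB kinase, 1 was called lower in WT, 2 in KO, 0 in FL and 1 in cKO, with 0 higher. Tab2, a kinase adaptor, was called at -0.66 in WT and -0.72 in KO, and Traf5 at -0.73 in KO and -1.04 in cKO. Of 8 TNF ligands, receptors and shedding factors, Adam17, the protease that frees TNF from the membrane, was called lower in WT at -0.45 and in KO at -0.43. Ltb, which encodes a lymphotoxin, was also called lower in both, at levels of 1.24 CPM or less. Lta was called higher in WT, where it had at most 0.45 CPM.

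The genes most like each member were ranked by Pearson's r of log2 CPM over the 28 libraries, among 15348 genes, after the mean of each experiment was subtracted. These values are a description, since the libraries share group, depth and scaling. Ier3 was closest to Jun, an AP-1 subunit, with r = 0.98, then to Zfp36 (0.97) and Brd2 (0.95). Zfp36 was closest to Ier3, Jun (0.96) and Brd2 (0.94). With group means subtracted instead, Ier3 and Jun kept r = 0.84, Ier3 and Zfp36 0.65, and Zfp36 and Brd2 0.17.

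Tnf was closest to Icam1, with r = 0.87 over the libraries and 0.68 within groups, followed by Spin4 and Sprtn, each at 0.82. Bcl3 was closest to Sbno2 (0.90, and 0.88 within groups) and to Myd88 (0.87), the adaptor of Toll-like receptors, and then to Clec4d (0.83). Nfkbiz was closest to Cebpd (0.79), Maff (0.76) and Fosl1 (0.74). Zfp36l2 was closest to Gas1 (0.90), Bmf (0.88) and P2ry1 (0.86), and Zfp36l1 to 4833413G10Rik (0.89), Mcl1 (0.86) and 1700096K18Rik (0.85). For Tnfaip3 the nearest were Acvr1c, Cass4 and Igsf10 (0.78, 0.78 and 0.76), for Nfkbia Cmklr1, Slc16a3 and Txnip (each 0.72), and for Zc3h12a Sh3bp2, Ssh3 and Hba-a2 (0.66, 0.66 and 0.65). Between members, r ran from -0.60 for Ier3 and Zfp36l2 to 0.97 for Ier3 and Zfp36.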

How the data were processed

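RNA of 28 mouse skin libraries had been sequenced after ribosomal RNA depletion with a stranded kit, per the labels' protocols. Per the submitters' processing notes, the authors used cutadapt 4.6, HISAT2 2.1.0 and featureCounts of Subread (version not given in the sources used here), with GRCm38. The deposited values are raw counts per gene, 1 table per experiment, and 0 columns of per-sample values went unused. Whether counting used strand is not stated, so Bcl3, Zfp36, Zfp36l1 and Zfp36l2, which overlap genes on the opposite strand, could share reads with them (at most 98 counts were listed for such a partner in the whole-body table). Positions in the whole-body table were those of GRCm38 for 99.8% of 55480 matched genes and for all 10 members. In the keratinocyte table this held for 2.79% of genes and 0 members, so its positions were not used and genes were joined by identifier.

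The test was edgeR's quasi-likelihood test (version 4.0.16, R 4.3.3, TMM scaling, filter on low counts by group, robust fit, 1 coefficient per group, two-sided, Benjamini-Hochberg adjustment over all genes, threshold 0.05), with all groups of an experiment in 1 fit and all 8 groups in a joint fit of 21851 genes. Log2 CPM used a prior count of 3. Depth was 7.12 to 43.84 M counts, at which 3 counts, the limit that a count of 0 allows, correspond to 0.0661 to 0.424 CPM, covering counting error only. On simulated counts, 85% of genes changed by 2 and 37% of genes changed by 1 on the log2 scale were recovered, for UV in WT (19873 genes) and for UV in FL (19428 genes) alike, and 6.87% and 1.61% of the calls were false. There, 100 genes were changed by each amount, none of them of low count, and nothing else differed between the groups. A larger share of genes was called in the data, so these rates need not hold there. No library repeated another (lowest chi-square per degree of freedom within a group 26.4).

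Samples were grouped by title. Same-numbered libraries deviated together (r over 0.1 in every pair) for UV in KO (0.13 to 0.18) and UV in cKO (0.23 to 0.49). No label pairs them, so the main test used no pairs, and the replicate number entered only as a block in an alternative. Members and lists (7 pathway and 13 cell type marker lists) were chosen with earlier results of these data known. All members were named, with up to 4 genes per list and comparison by smallest p, and the 3 genes most like each member. Alternatives were DESeq2 1.42.0, other size factors, no filter, fits of 2 groups, blocks by replicate number or by the leading digit of the number in the column names, tissue covariates, and libraries left out. The joint fit had only DESeq2, other size factors, no filter and single libraries left out. A sequence match that was left out is not reported here.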

Additional observations from a re-analysis of the deposited data

Results flagged for a closer look

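In cKO NoUV, replicate 2 stood apart in Nfkbiz at 72.7 CPM, where the others had 66.0 to 66.4 CPM, a gap of 0.935 of the group's range. In FL UV, replicate 3 stood apart in Ier3 at 120 CPM, where the others had 64.4 to 72.0 CPM, a gap of 0.864 of the range. These were 2 of 40 sets of 4 libraries examined, and chance gives about 1 in 20.

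Tnfaip3 moved in opposite directions after UV, with no overlap between libraries, at -1.02 (log2) in KO and 0.57 in FL. By edgeR the KO value was called (adjusted p = 0.0198), though not in every alternative analysis, and the FL value was not (adjusted p = 0.087). Of all genes, 25.4% were lower without overlap in KO and 6.67% were higher without overlap in FL. The KO and FL values of Tnfaip3 were not tested against each other. The difference between the mean UV responses of the experiments was tested, in a comparison added after the data were seen, and was -1.09 for Tnfaip3 (adjusted p = 0.00536) and -0.61 for Zfp36l2 (adjusted p = 0.0223). Both had a lower UV response in the whole-body experiment.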

How the results depend on the processing

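Zfp36 and Ier3 were called after UV in all 4 genotypes under every alternative run. The number of the 10 genes called for UV in WT was 5 without WT NoUV 1 and WT UV 1, a choice made after seeing the data, against 2. For that fit the number over all genes is not given here. For UV in KO the number of the 10 was 7 in a fit of the 2 groups alone, against 4 (over all genes, 7493 against 4552). For UV in FL it was 2 without the hair-rich libraries, also chosen after seeing the data, against 4 (over all genes, 400 against 1502). With single libraries left out, the count ran from 2 to 4 for UV in WT, from 3 to 4 in KO, from 3 to 5 in FL and from 3 to 5 in cKO. Over all genes, the calls ran from 2734 to 4315 in WT, 2832 to 5683 in KO, 884 to 1696 in FL and 1178 to 2424 in cKO. For the UV effect in WT minus in FL, the count of the 10 ran from 0 to 1 (65 to 423 over all genes). It stayed at 0 in the 6 genotype and interaction comparisons and at 2 in the added comparison of experiments (1474 to 2105 over all genes). The cause of these shifts was not tested. The block by replicate number was fitted over all groups of an experiment. With it, the counts were 3 in WT, 4 in KO, 4 in FL and 5 in cKO, given here without the counts over all genes. In KO and cKO, where same-numbered libraries deviated together though no label pairs them, this block changed no call other than Bcl3 in cKO. Same-numbered libraries of WT and FL did not all deviate together. They correlated from -0.38 to 0.33 in WT, with 1 of 3 best with its own number, and from -0.12 to 0.53 in FL, with 2 of 4. Over all fold changes and alternatives, 2607 kept their direction and side of the threshold, 33 became called and 19 were lost. Another 141 uncalled values changed direction. No called value changed sign. Counts over all genes depended more on the choice. For UV in WT, 3817 genes were called, against 1169 with tissue covariates and 1288 in a fit of the 2 groups. For UV in KO it was 4552, against 2600 and 7493. For UV in FL it was 1502, against 2443 by DESeq2, 992 without the filter, 953 with 2 groups and 400 without the hair-rich libraries, and for UV in cKO 1917, against 2984 by DESeq2 and 1276 without the filter. Between KO and WT it was 2 without UV and 9 with UV, against 539 and 425 by DESeq2, and for the UV effect in WT minus in FL 262, against 688 by DESeq2 and 137 without the filter. Depth limits Tnf, which had 14 to 240 counts per library.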
